A study of Homo sapiens with 8 samples.

Results

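Immediate early genes encode transcription factors that cells switch on within minutes of a signal, without first making new protein. Here 10 of them were followed among the 60606 genes of the count table, chosen by gene symbol from 4 families: the AP-1 subunits FOS, FOSL2, JUN, JUNB and JUND, the zinc finger factors EGR1, KLF6 and KLF10, the nuclear protein IER2, and MYC. All 10 were found by symbol. Their expression was measured in HEK293, an established human embryonic kidney line, after transfection with a synthetic small RNA. One group received a mimic of a fragment from the 3' side of tRNA-Asp-GTC (a tRNA-derived RNA, tDR), and the control group received a scrambled mimic. Both groups received 50 nM of mimic with a lipid reagent and were harvested after 48 h, with 4 libraries in each group, and the labels name no other treatment or genetic change. The time point lies far beyond the first wave of an immediate early response, so the levels are those at 48 h and not an induction peak. Nothing states that the 4 libraries of a group came from separate cultures, and the error behind each p-value is then only that among these libraries, possibly technical.

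AP-1 is a dimer in which a JUN protein pairs with a FOS protein or with another JUN protein, and it binds DNA through a basic leucine zipper. Transcription of FOS and EGR1 is classically driven through the ERK cascade, which acts on serum response factor (SRF) and its ternary complex partners at CArG boxes, and through CREB at cyclic AMP response elements (CRE). EGR1 in turn switches on NAB2, which encodes a co-repressor of EGR1. MYC pairs with MAX to activate growth genes, and MXD proteins compete with MYC for MAX. The mRNAs of many of these genes carry AU-rich elements and are short-lived.

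The promoters of 8 of the 10 genes could be matched in RefSeq (GRCh38.p14). Each window held 250 bases before and 50 bases after the RefSeq start, and motif positions count from that start. The promoters of KLF10 and MYC were not searched. Those of EGR1, FOS and FOSL2, picked once their values were known, are shown because these genes were higher in the tDR libraries, and that of JUN because it is the most abundant of the group. Capitals mark CArG boxes, the CRE core TGACG (or CGTCA, its reverse) and the AP-1 site TGANTCA. By the GENCODE gene positions used further below, the windows of FOSL2 and JUN lie wholly inside the gene. Bases before the GENCODE start of these genes were thus not searched. Those of EGR1 and FOS include the GENCODE start. The windows are chr5:138465229-138465528 on the plus strand for EGR1, chr14:75278578-75278877 on the plus strand for FOS, chr2:28392608-28392907 on the plus strand for FOSL2 and chr1:58783998-58784297 on the minus strand for JUN.
EGR1: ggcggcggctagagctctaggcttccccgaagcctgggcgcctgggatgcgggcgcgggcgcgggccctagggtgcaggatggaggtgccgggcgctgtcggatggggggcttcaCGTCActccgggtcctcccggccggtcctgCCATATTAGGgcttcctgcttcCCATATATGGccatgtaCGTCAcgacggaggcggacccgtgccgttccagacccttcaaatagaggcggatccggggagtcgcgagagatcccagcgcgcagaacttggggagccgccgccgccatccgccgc
FOS: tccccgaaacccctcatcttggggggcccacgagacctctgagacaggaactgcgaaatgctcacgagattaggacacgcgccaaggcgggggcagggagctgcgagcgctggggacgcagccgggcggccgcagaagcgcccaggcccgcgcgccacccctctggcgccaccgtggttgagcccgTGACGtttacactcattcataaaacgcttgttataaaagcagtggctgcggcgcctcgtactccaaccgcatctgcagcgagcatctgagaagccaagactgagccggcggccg
FOSL2: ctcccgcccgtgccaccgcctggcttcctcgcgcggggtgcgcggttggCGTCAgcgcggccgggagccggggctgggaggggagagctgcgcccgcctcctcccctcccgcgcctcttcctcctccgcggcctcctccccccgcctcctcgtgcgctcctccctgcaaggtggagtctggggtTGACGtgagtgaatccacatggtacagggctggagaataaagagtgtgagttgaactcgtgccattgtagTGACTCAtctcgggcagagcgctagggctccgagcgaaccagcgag
JUN: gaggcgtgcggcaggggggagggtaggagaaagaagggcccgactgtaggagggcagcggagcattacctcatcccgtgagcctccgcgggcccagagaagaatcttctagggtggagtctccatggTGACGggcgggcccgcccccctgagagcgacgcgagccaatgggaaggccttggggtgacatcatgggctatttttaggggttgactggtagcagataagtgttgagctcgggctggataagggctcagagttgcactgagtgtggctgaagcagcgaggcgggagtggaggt

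Both strands of each window were searched for exact matches, and a palindromic match was counted once. Variants of a motif, such as a longer spacing, were neither counted nor marked. EGR1 held 2 CArG boxes, at -105 to -96 and -83 to -74 from its start, and was the only one of the 8 genes with this motif in its window, against 1.29% of all 35116 promoters of this length. The CRE core TGACG occurred in 7 of the 8 windows, all but KLF6, against 24.6% of all promoters. FOS held 1 copy at -64 to -60, and EGR1 and FOSL2 held 2 each. The full palindrome TGACGTCA, which contains the core on both strands, stood only in JUND among the 8, at -200 to -193 (1.85% of all promoters). The AP-1 site TGANTCA stood only in FOSL2, at 5 to 11 after the start (7.71%), and the E-box CACGTG, which MYC and MAX bind, only in KLF6 (7.26%). GC boxes (GGGCGG) were in 6 of the 8 (45.0%). These matches describe the letters in a short window and do not show binding.

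In the cells given the tDR, EGR1, FOS, FOSL2 and KLF10 rose and MYC fell. JUN, JUND, IER2 and KLF6 did not pass the test, and JUNB was listed at 0 counts in all libraries. Thus 9 of the 10 genes could be tested, and 5 of these 9 were called, with 0.05 as the limit on edgeR's quasi-likelihood p after Benjamini-Hochberg adjustment over 17184 genes. Over all genes tested 24.3% were called, 12.8% (2206) higher and 11.4% (1962) lower. The split between directions depended on the scaling. With library size alone 3295 genes were higher and 907 lower, and with uncentred offsets for exon length and GC content 1578 were higher and 4130 lower. The tested members' median log2 fold change was 0.02, the same as the 0.02 of all genes tested. Without control replicate 4 or without tDR replicate 1, FOS and KLF10 both lost their calls and 2 genes, EGR1 and FOSL2, remained called higher.

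**Figure D1:**
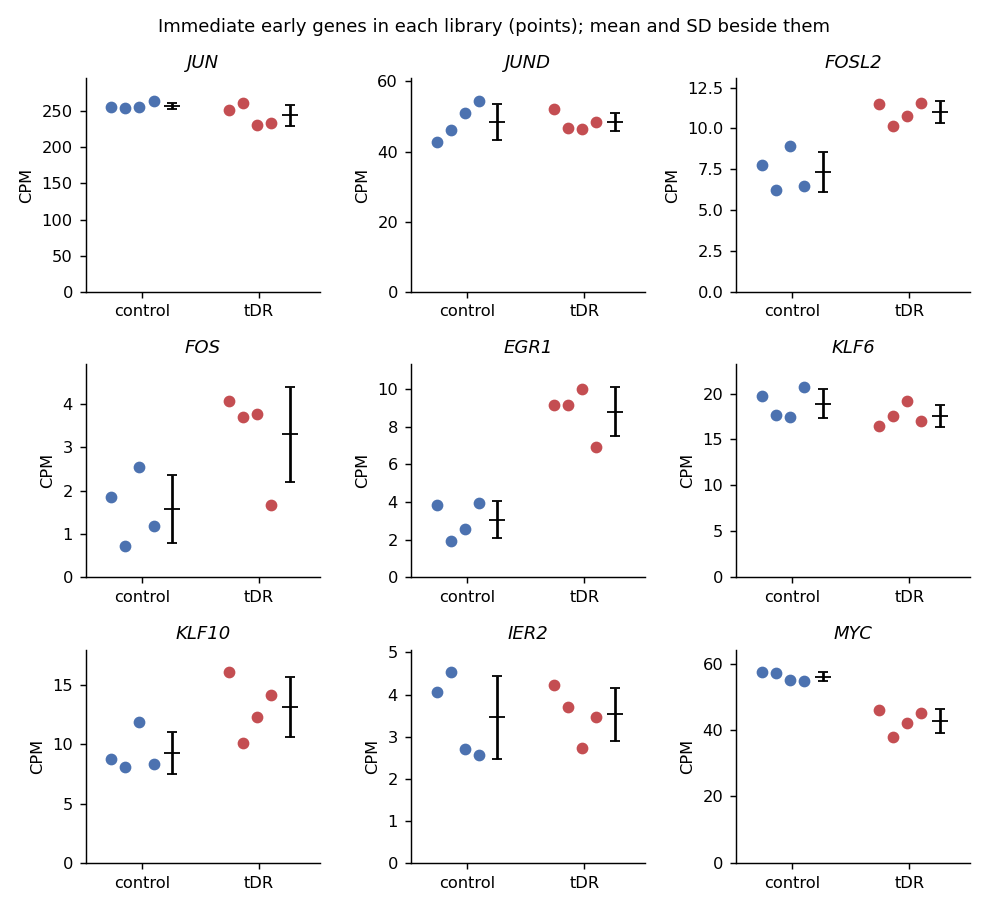
Level of each tested gene in CPM, the reads of a gene scaled to library size (vertical axes from 0), in the 4 control and 4 tDR libraries, 1 point per library, with the group mean and SD beside the points. The groups are separate for EGR1, FOSL2 and MYC and overlap for the other 6 genes.

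Levels are given as CPM with library sizes scaled by TMM, which corrects for composition differences between libraries. Total counts ran from 5848305 to 10557740 per library, so that 1 read was worth 0.0982 to 0.169 CPM. EGR1 and FOS were thus measured by few reads. Genes of HEK293 cells (PAX2, LHX1, NEFL, NEFM, VIM, KRT8 and KRT18) were all present above 5 CPM, and the defining markers of leukocytes, hepatocytes and erythroid cells were each below that level, with HBA1 at 0. Of the markers of endothelium and fibroblasts, VWF and COL1A1 were above it. The summed HEK293 genes were 530 to 581 CPM in control and 468 to 512 CPM in tDR libraries. By log2 fold change, NEFL (-0.46) and NEFM (-0.41) were called lower and PAX2 (0.44) and KRT8 (0.63) higher. The leukocyte sums were 3.17 to 5.14 and 3.22 to 5.66 CPM, and the hepatocyte sums 1.28 to 2.45 and 3.01 to 5.18 CPM. The summed endothelial markers were 5.25 to 8.10 CPM in control and 12.2 to 14.1 CPM in tDR libraries. For the fibroblast markers the sums were 18.1 to 22.3 and 28.6 to 34.9 CPM. Reads over olfactory receptor genes, which serve as a measure of background, also differed, with 0.0141 to 0.0185 CPM per kilobase in control and 0.0232 to 0.0257 in tDR libraries. The part of the markers in the results was not tested. That background density times each gene's span came to between 0.0280% (JUN) and 5.48% (FOSL2) of the counts of the 9 tested genes.

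EGR1 (chromosome 5, 138465490 to 138469315, GRCh38), a zinc finger factor induced by growth factors and stress, had the largest fold change of the group. Control replicates 1 to 4 held 35, 16, 16 and 40 reads, or 3.83, 1.96, 2.54 and 3.93 CPM. The tDR replicates 1 to 4 held 54, 67, 77 and 66 reads, or 9.14, 9.18, 9.98 and 6.92 CPM. Every tDR library lay above every control library. The mean was 3.07 ± 0.972 CPM in control and 8.80 ± 1.31 CPM in tDR libraries (SD, n = 4), a fitted increase of 2.79-fold. The log2 fold change was 1.48 ± 0.24 (SE), with an adjusted p of 2.81e-06 (edgeR). Each of the 20 alternatives kept the call, with adjusted p from 9.28e-08 to 0.000190. Genes of like abundance, with a mean of 5 to 20 CPM, had a median log2 fold change of 0.12, and 21.2% of them were called higher, 2.83% lower and 24.1% either way.

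Of the FOS subunits, both tested members rose. FOSL2 (chromosome 2, 28392448 to 28417312) encodes FRA-2, a more stable relative of FOS. Its control libraries held 7.77, 6.24, 8.90 and 6.48 CPM and its tDR libraries 11.5, 10.1, 10.8 and 11.5 CPM, with no overlap between the groups. The mean was 7.35 ± 1.23 CPM in control and 11.0 ± 0.672 CPM in tDR libraries, and the log2 fold change was 0.59 ± 0.18 (SE), with an adjusted p of 0.0101 (edgeR). The call was kept under all 20 alternatives, with log2 fold changes of 0.48 to 0.68.

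FOS itself (chromosome 14, 75278774 to 75282230), the classical partner of JUN, was the rarest of the tested genes. Its reads were 17, 6, 16 and 12 in control and 24, 27, 29 and 16 in tDR replicates 1 to 4. In CPM these were 1.86, 0.734, 2.54 and 1.18 against 4.06, 3.70, 3.76 and 1.68. In 3 tDR libraries FOS stood above every control library, and tDR replicate 4 lay within the control range. The mean was 1.58 ± 0.792 CPM in control and 3.30 ± 1.09 CPM in tDR libraries, and the log2 fold change was 1.07 ± 0.37 (SE), with an adjusted p of 0.0266 (edgeR). The call rested on single libraries. The log2 fold change was 0.83 without control replicate 2, 0.93 without control replicate 4, and 0.95, 0.99 and 0.98 without tDR replicates 1, 2 and 3, with adjusted p between 0.0781 and 0.0983. With background subtracted it was 1.11 (edgeR, adjusted p = 0.0976). Genes with a mean under 5 CPM had a median log2 fold change of 0.37, and 15.8% of them were called higher, 0.39% lower and 16.2% either way.

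The JUN subunits were far more abundant, and neither of the 2 that could be tested was called. JUN (chromosome 1, 58780788 to 58784327) stood at 256, 254, 256 and 264 CPM in control and at 252, 262, 231 and 234 CPM in tDR libraries. Its log2 fold change was -0.08, with a 95% interval from -0.18 to 0.02 (edgeR, adjusted p = 0.263). With uncentred offsets for length and GC content JUN was called lower, at -0.16 both without the replicate block (adjusted p = 0.00748) and with it (0.0108). Of genes at 100 CPM and over 4.04% were called higher, 38.2% lower and 42.2% either way. JUND (chromosome 19, 18279760 to 18281622), the JUN protein that is usually present in resting cells, stood at 42.8, 46.0, 51.0 and 54.3 CPM against 52.1, 46.6, 46.5 and 48.4 CPM. The interval of its log2 fold change ran from -0.17 to 0.16 (edgeR, adjusted p = 0.971).

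JUNB (chromosome 19, 12791496 to 12793315) was listed at 0 in all 8 libraries, and this sets no limit on its level. In GENCODE release 29, 14.2% of its exon bases are shared with exons of HOOK2. The gene lies wholly within the span of HOOK2, on the opposite strand. All 5 protein-coding genes within that span, PRDX2 and RNASEH2A among them, were listed at 0. Among all genes of the count table, 98.7% of the 1020 protein-coding genes that lie inside another gene's span on the opposite strand only were at 0, and 97.1% of the 512 that lie inside one on their own strand, against 5.68% of the 18296 that lie inside none. FOSB and DUSP1 were nested in this way too and also listed at 0. A gene that overlaps another only in part may have lost some of its reads. Such overlaps cover 25.0% of the span of IER2 and 10.1% of that of FOSL2. None was annotated for the other 7 tested genes.

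**Figure D2:**
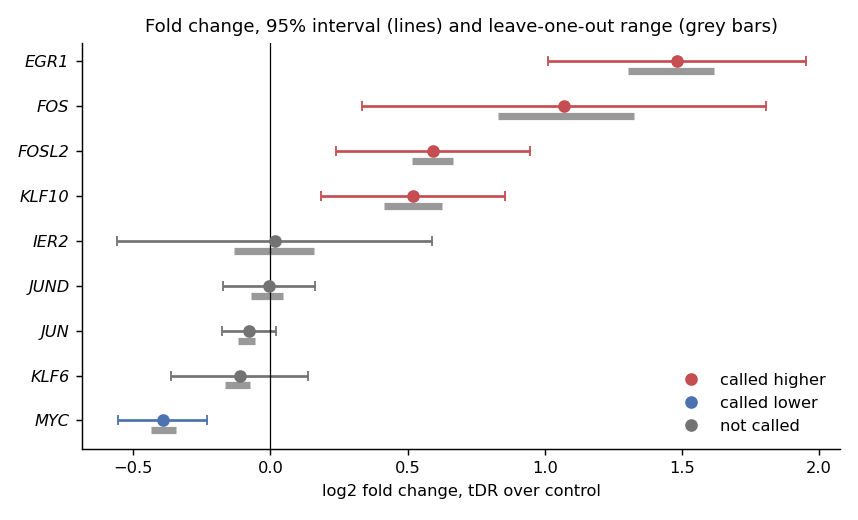
Log2 fold change of tDR over control for the 9 tested genes (points) with 95% intervals (lines), coloured by call, and the range when each library is left out in turn (grey bars). EGR1 lies at 1.48 and MYC at -0.39, and the intervals of IER2, JUND, JUN and KLF6 include 0.

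Of the 2 Krüppel-like factors KLF10 rose and KLF6 was not called. KLF10 (chromosome 8, 102648779 to 102655902), a repressor first described as an early gene of TGF-beta signalling, held 8.76, 8.07, 11.9 and 8.35 CPM in control and 16.1, 10.1, 12.3 and 14.2 CPM in tDR libraries. Control replicate 3 was above tDR replicate 2, and the other control libraries lay below all tDR libraries. The mean was 9.27 ± 1.79 CPM in control and 13.2 ± 2.54 CPM in tDR libraries, and the log2 fold change was 0.52 ± 0.17 (SE), with an adjusted p of 0.0179 (edgeR). The call was lost without control replicate 4 (0.46), tDR replicate 1 (0.41) or tDR replicate 4 (0.47), with adjusted p of 0.0604, 0.0824 and 0.0697. It was also lost with uncentred length and GC offsets in the fit with the replicate block (0.41; edgeR, adjusted p = 0.0552).

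KLF6 (chromosome 10, 3775996 to 3785281), a broadly expressed member of the same family, held 19.7, 17.6, 17.5 and 20.7 CPM in control and 16.4, 17.5, 19.2 and 17.0 CPM in tDR libraries, which overlap. Its log2 fold change was -0.11, with an interval from -0.36 to 0.14 (edgeR, adjusted p = 0.553). Reads of KLF10 per read of KLF6 in the same library, a ratio that no scaling alters, were 0.444, 0.458, 0.682 and 0.403 in control and 0.979, 0.578, 0.642 and 0.833 in tDR libraries. These ranges overlap through control replicate 3. The difference between the fold changes of both genes was not tested.

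IER2 (chromosome 19, 13150415 to 13154908), a small nuclear protein of the early response, held 4.05, 4.53, 2.70 and 2.55 CPM in control and 4.23, 3.70, 2.72 and 3.46 CPM in tDR libraries. The groups overlapped throughout. With 17 to 37 reads per library its interval was wide, from -0.56 to 0.59 on the log2 scale (edgeR, adjusted p = 0.978), and it includes a change of the size fitted for KLF10.

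MYC (chromosome 8, 127735434 to 127741434) was the only member that fell. It held 57.4, 57.1, 55.1 and 54.7 CPM in control and 46.1, 37.8, 42.0 and 45.1 CPM in tDR libraries, with every tDR library below every control library. The mean was 56.1 ± 1.35 CPM in control and 42.7 ± 3.72 CPM in tDR libraries, and the log2 fold change was -0.39 ± 0.08 (SE), with an adjusted p of 0.000223 (edgeR). The call was kept under all 20 alternatives, with log2 fold changes from -0.48 to -0.31. Among genes with a mean of 20 to 100 CPM the median log2 fold change was -0.05, and 14.1% were called lower, 8.81% higher and 22.9% either way. Of the 9 tested members 3 had groups that did not overlap, namely EGR1 and FOSL2, which were higher, and MYC, which was lower. Over all genes tested this held for 22.7%, with 11.8% higher and 10.8% lower.

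**Figure D3:**
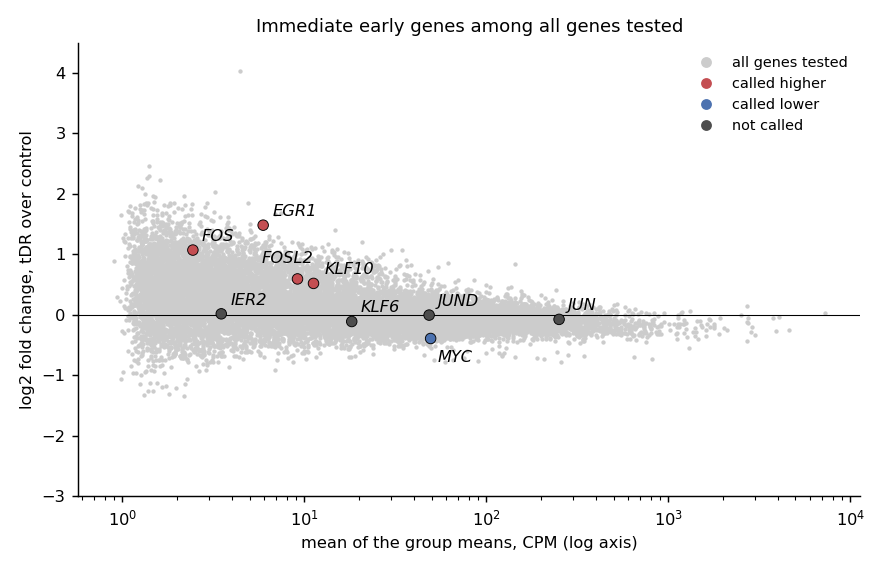
Log2 fold change of tDR over control (vertical axis) against mean level in CPM (horizontal log axis) for the 17184 genes tested (grey) and the 9 immediate early genes (coloured by call). Rare genes lie higher than abundant ones as a whole, with a median of 0.37 under 5 CPM and -0.10 at 100 CPM and over.

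To compare genes with each other, CPM were divided by the length of the annotated exons. Whether reads were counted over exons or whole gene spans is not stated. The exons of FOSL2 make up 7.16 of the 24.9 kilobases of its span, so its place may depend on this. Another gene's span covers 36.6% of the IER2 exons, where reads may have been lost. In controls the order of levels was JUN (72.8 CPM per kilobase), JUND (26.1), MYC (18.7), KLF6 (3.08), KLF10 (2.32), IER2 (1.13), FOSL2 (1.03), EGR1 (0.977) and FOS (0.488). The ranges of JUN, JUND, MYC and KLF6 did not overlap with one another over the 4 control libraries. Those of KLF6 and KLF10 overlapped, and so did those of neighbours from IER2 down to FOS. In tDR libraries JUN (69.1 CPM per kilobase), JUND (26.0) and MYC (14.2) kept their places. EGR1, at 2.81 ± 0.419 CPM per kilobase (SD, n = 4), then stood above FOSL2 (1.53), IER2 (1.15) and FOS (1.02) and within the range of KLF6 (2.86).

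Reads of FOS and FOSL2 made up a small share of the reads of FOS, FOSL2, JUN and JUND together. FOSL1, an AP-1 relative with 124 reads over all libraries, was left out, and the reads were not divided by gene length. JUNB and FOSB, listed at 0, are missing as well, so these are not shares of all AP-1 transcripts. This share was 3.12%, 2.27%, 3.59% and 2.35% in control and 4.88%, 4.29%, 4.97% and 4.48% in tDR replicates 1 to 4, and the groups did not overlap. JUN alone held 78.8% to 83.0% of these reads in each library. MYC reads per read of MAX, its dimer partner, were 0.601, 0.623, 0.596 and 0.639 in control and 0.555, 0.455, 0.502 and 0.532 in tDR libraries. For MXD1, which competes with MYC for MAX, the ratio of MYC reads to MXD1 reads was 1.79, 1.78, 1.75 and 1.55 in control and 1.23, 0.841, 1.04 and 1.03 in tDR libraries. Both ratios were lower in every tDR library than in any control library, but MYC alone already separated the groups. MXD1 alone separated them in the other direction, so the ratio of MYC to MXD1 could not overlap. FOSL2, part of the share above, also separated the groups alone. Of all single genes tested 22.7% did so, and the proportion among gene pairs was not computed. These ratios were chosen after the values of single genes were seen and are given with no test.

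**Figure D4:**
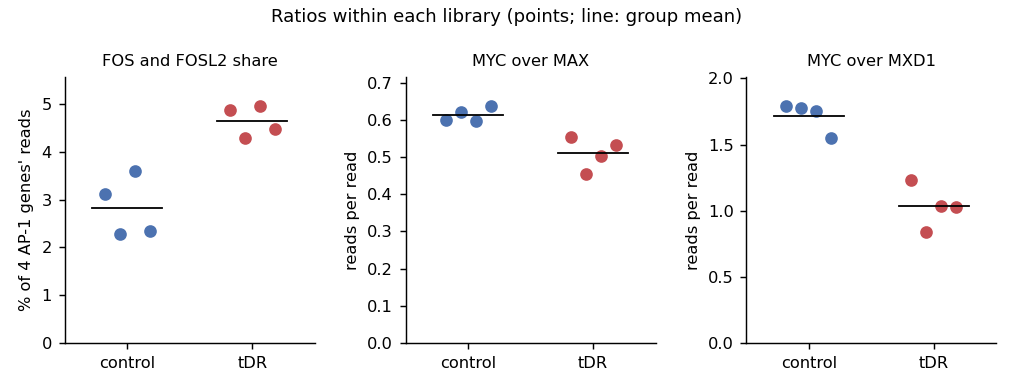
Ratios of reads within each library, with 1 point per library and the group mean as a line: the share of FOS and FOSL2 among the reads of FOS, FOSL2, JUN and JUND (in percent), MYC reads per MAX read, and MYC reads per MXD1 read. All 3 separate the groups, as MYC, MXD1 and FOSL2 already do alone. The lowest share in tDR libraries is 4.29% and the highest in control libraries 3.59%.

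The genes around these factors were read from 9 lists with 104 entries, of which 86 could be tested, and 10 rose and 11 fell. These are 11.6% and 12.8% of the genes tested, near the 12.8% and 11.4% of all genes. Among relatives of AP-1, ATF3, a stress-induced bZIP factor, rose from 36.1 ± 5.11 to 60.0 ± 2.55 CPM (log2 fold change 0.73; edgeR, adjusted p = 2.76e-09). MAFK, which encodes a small MAF protein, rose by 0.46 on the log2 scale, a call lost with uncentred length and GC offsets (0.33). ATF2 fell by 0.17, a call lost under 13 of 20 alternatives, the fit with replicate number as a block among them (-0.17; edgeR, adjusted p = 0.0549). The other 6 tested of 9, FOSL1 among them, were not called. The list's median was 0.15. Of its tested genes 22.2% were called higher and 11.1% lower, beside 12.8% and 11.4% of all genes.

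NAB2, the co-repressor induced by EGR1, rose from 10.8 ± 1.43 to 16.2 ± 1.41 CPM (log2 fold change 0.60; edgeR, adjusted p = 0.00166), and NAB1, at -0.09, was not called. The NAB2 libraries did not overlap between groups, and 11.8% of all genes tested were higher without overlap. Of genes at 5 to 20 CPM, the class of NAB2, 21.2% were called higher. EGR2, EGR3 and EGR4 were too rare to be tested. EGR1 reads per NAB2 read were 0.402, 0.178, 0.200 and 0.396 in control and 0.587, 0.578, 0.546 and 0.458 in tDR libraries.

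Of 19 tested genes among other immediate early genes, SGK1 and CSRNP1 rose, none fell, and the median was 0.15, against 0.02 over all genes. This is 10.5% of the list called higher, below the 12.8% of all genes and the 21.2% of genes at 5 to 20 CPM, the class of both. SGK1, a kinase gene induced by serum and glucocorticoid, went from 6.31 ± 0.482 to 10.7 ± 0.459 CPM (log2 fold change 0.76). An estimated 35.2% of its reads were background. With background subtracted its log2 fold change was 0.90 (edgeR, adjusted p = 0.00929), and the call was kept under all 20 alternatives. CSRNP1 had a log2 fold change of 0.59 and lost its call without control replicate 2 (0.53) and without tDR replicates 2 (0.53) and 4 (0.54), among 5 alternatives in all. NR4A1 at 0.31, CCN1 at 0.34, IER5 at -0.20 and MCL1 at 0.03 were not called. Among 11 other tested KLF genes KLF9 fell by 0.29 and 10 were not called. This is 9.09% called lower, beside 11.4% of all genes.

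**Figure D5:**
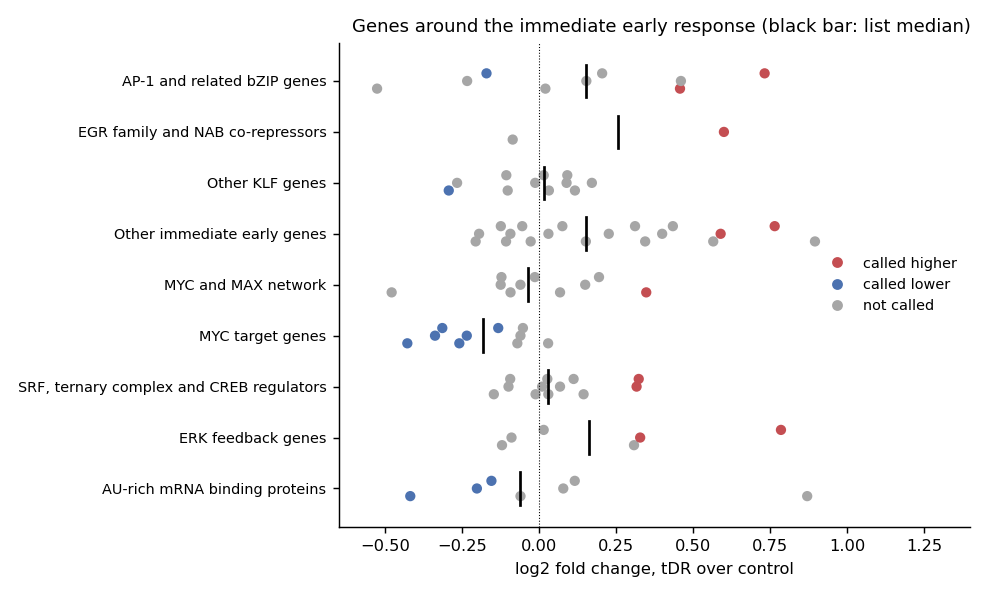
Log2 fold change of tDR over control for each tested gene of the 9 lists (points, coloured by call) with the list median (black bars). The MYC target genes have the lowest median, at -0.18, and 6 of the 10 tested were called lower (60%, beside 11.4% of all genes tested).

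In the MYC and MAX network, MXD1 rose from 32.7 ± 1.77 to 41.6 ± 3.39 CPM (log2 fold change 0.35; edgeR, adjusted p = 0.00348), and MAX at -0.13 and the other 8 tested genes were not called. That is 10% of the list called higher, beside 12.8% of all genes. Of 10 tested MYC target genes 6 fell and none rose, with a list median of -0.18. This is 60% called lower, beside 11.4% of all genes. NPM1, a nucleolar chaperone, went from 3100 ± 58.1 to 2303 ± 118 CPM (log2 fold change -0.43), NCL, the nucleolin gene, fell by 0.34, FBL by 0.32 and DKC1 by 0.26. CDK4 at -0.05 and CAD at -0.06 were not called. The 6 that fell average over 100 CPM, where 38.2% of all genes were called lower. This class was set by the genes that fell and not by the whole list.

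Of the 12 genes for SRF, its partners and CREB regulators, the CREB coactivator genes CRTC1 and CRTC2 rose by 0.32 each and 10 were not called. The 2 of 12 are 16.7%, beside the 12.8% of all genes called higher and the 8.81% at 20 to 100 CPM, the class of both. SRF itself, at -0.01, was not called. CRTC2 lost its call without tDR replicate 4 (0.25), and CRTC1 with uncentred length and GC offsets and the replicate block (0.18). Among 6 tested feedback genes of the ERK pathway, DUSP5, a nuclear ERK phosphatase, rose from 4.32 ± 0.653 to 7.39 ± 1.23 CPM (log2 fold change 0.78; edgeR, adjusted p = 0.00651) and SPRED2 by 0.33, and 4 were not called. The 2 of 6 are 33.3%, beside the 12.8% of all genes called higher. With so few genes the 2 calls are also read beside the class of each gene. Of genes at 5 to 20 CPM, the class of DUSP5, 21.2% were called higher, and 8.81% at 20 to 100 CPM, the class of SPRED2.

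Proteins that bind AU-rich mRNAs were the last list. HNRNPD, whose protein AUF1 promotes decay of such mRNAs, fell from 758 ± 46.5 to 567 ± 33.8 CPM (log2 fold change -0.42; edgeR, adjusted p = 4.55e-10). KHSRP fell by 0.20 and ELAVL1, which encodes the stabilising protein HuR, by 0.16, and the other 4 of the 7 tested were not called. The 3 of 7 are 42.9%, beside the 11.4% of all genes called lower. The 3 that fell average over 100 CPM, where 38.2% of all genes were called lower. Other genes of the list may belong to other classes. ELAVL1 lost its call without tDR replicate 2 (-0.13), with library size alone (-0.07) and with background subtracted (-0.10). ZFP36, itself an early gene, was at 0.87 and not called (edgeR, adjusted p = 0.074).

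For each called member the 3 genes with the most similar profile were sought among genes with a mean log2 CPM above 2. Similarity was the root mean square difference of log2 CPM relative to the control mean over the 8 libraries. FOS itself lies below that limit on the mean level, so genes as rare as FOS were not searched. All profiles share the same libraries and groups. RELB was nearest to EGR1 (0.16), followed by SVOPL (0.30) and LINC02241 (0.31). RELB went from 3.26 ± 0.866 to 10.5 ± 1.61 CPM. PPP1R14B (0.03), POLR3G (0.04) and ZNF117 (0.05) were nearest to MYC, and ZNF117 itself was not called (edgeR, adjusted p = 0.0754). IFNLR1 (0.08), SLC8B1 (0.08) and PABPC1L (0.10) were nearest to FOSL2, and STARD8 (0.10), CSPG4 (0.13) and REPS2 (0.14) to KLF10. Of the genes searched, WTIP (0.34), HAP1 (0.37) and SYTL3 (0.38) were nearest to FOS.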

How the data were processed

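Long RNA was measured in 8 HEK293 libraries made with a stranded low-input total RNA kit, per the labels' protocols. The deposited values are raw counts, whole numbers of reads for each gene and library. The tools named are cutadapt 2.10 and STAR 2.7.8a, then FastQC 0.11.9 and featureCounts 2.0.2, as well as DESeq2 1.30.1, with builds GRCh38.p13 and hg38, per the submitters' processing notes. Strand setting, annotation and the handling of overlapping or multiply mapped reads: not given in the sources used here. Nearly all genes nested in another gene were at 0, so counts of overlapping genes are uncertain.

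Groups were compared with edgeR 4.0.16 in R 4.3.3 (quasi-likelihood test, TMM, edgeR's filter on low counts, 17184 genes, group as the only term), with Benjamini-Hochberg adjustment over all genes. The steps were tested on simulated data, where the share of false calls was above the nominal limit and small changes were often missed. Alternatives were DESeq2 1.42.0, limma 3.58.1 with voom, other scalings and filters, the replicate number as a block, smooth offsets for exon length and GC content, subtraction of background estimated from 381 olfactory receptor genes, and leaving out each library. The offsets first kept the mean of the smooth in each library. Once their results had been seen, they were centred in each library, and both versions are reported. Positions and lengths came from GENCODE release 29 on GRCh38 (94.0% of genes matched) and promoters from RefSeq.

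The members and lists were chosen with earlier results of these data known. A further list, of genes upstream of these factors, is not reported here and is left out of the counts. The ratios between genes, the classes of mean CPM, the check on nested genes, and the motifs and promoters shown were also chosen after values had been seen. The text names all members, from each list up to 4 called genes with the smallest p, and for each called member its 3 nearest profiles. Genes given as not called, and FOSB, DUSP1, HOOK2, PRDX2, RNASEH2A and the EGR genes, were named after their values were seen.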

Additional observations from a re-analysis of the deposited data

Results flagged for a closer look

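In 2 cases 1 library stood apart from the other 3 of its group by Dixon's criterion at the 95% level, which chance meets in about 5% of groups. Over 44 genes and both groups 88 groups were considered. FOS was at 1.68 CPM in tDR replicate 4, against 3.70 to 4.06 CPM in the other tDR libraries. SYTL3, 1 of the genes nearest to FOS, was at 11.8 CPM in tDR replicate 3, against 8.76 to 9.14 CPM. Without tDR replicate 4 the log2 fold change of FOS was 1.31 (edgeR, adjusted p = 0.0126).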

How the results depend on the processing

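Each tested member was refitted under 20 alternatives, and in 168 of the 180 refits its call stayed as it was. The 10 lost calls were those of FOS (6) and KLF10 (4), the 2 gained were those of JUN, and no called member changed direction. Leaving out 1 library gave 2 to 4 members called higher and 1 lower, and over all genes 1640 to 2200 higher and 1511 to 2109 lower. With background subtracted 1116 genes were higher and 1095 lower. With library size alone 907 genes were lower, 17 rather than 10 genes of the lists rose, and the median log2 fold change of all genes was 0.10. The offsets for length and GC content moved results most where they were not centred in each library, the form in which they were first fitted. These gave 4130 genes lower, 2 members lower and 23 list genes lower, and 4014, 2 and 23 with the replicate block. Their median over all genes was -0.08. The centred offsets were preferred after these results were seen. They gave, with the replicate block, 2083 genes higher and 1768 lower, 4 members higher and 1 lower, and 11 list genes higher and 10 lower. The mean of the smooth, kept in the uncentred form, was -0.07 to -0.03 (log2) in control and 0.03 to 0.06 in tDR libraries, so it shifts the groups against each other. The replicate numbers did not pair the libraries, since same-numbered libraries correlated at -0.03 to 0.07 in their deviations from the group means. With the replicate block alone 2040 genes were higher and 1834 lower, 4 members were higher and 1 lower, and 10 list genes rose and 10 fell. Low counts limit FOS and IER2, which had 6 to 37 reads per library.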
